A study of Homo sapiens with 8 samples.

Results

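ASH1L encodes a large histone methyltransferase of the trithorax group, which transfers methyl groups to histone H3 through its catalytic SET domain. The enzyme holds itself in an inactive state until MRG15, the product of MORF4L1, binds and releases its active site, and the study examined it as a helper of nucleotide excision repair after ultraviolet damage. The gene itself was disrupted in the knockout cells of this series, so the open chromatin over its own locus was mapped here, library by library. The ATAC-seq assay lets the transposase Tn5 cut DNA wherever nucleosomes leave it exposed, and the deposited lists hold the intervals (regions) in which cuts piled up above the local background.

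The cells were U2OS, a human osteosarcoma line, either WT or ASH1L-/-, and either unchallenged (no UV) or irradiated with 20 J/m2 of UV-C light and collected 3 h later (3 h post UV). Each of the 4 groups had 2 libraries, labelled as biological replicates. The ASH1L-/- line was made with Cas9 and guides against exon 2 and exons 11 and 12, and was grown from an isolated colony, so that an effect of losing ASH1L and a trait of that clone cannot be told apart. All 8 libraries had a promoter region at RUNX2, COL1A1, VIM and CDH2, markers of mesenchymal or osteoblast cells, 7 had one at COL1A2 and 2 at TWIST1. Of the markers of other lineages, CD3E had none, PTPRC and ALB had one in 1 library, and EPCAM and GFAP in all 8, so that promoter accessibility marked the lineage only in part.

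The members are all regions that overlapped the annotated span of ASH1L (ENSG00000116539.14, build hg38, chr1:155335268-155563162, minus strand, 228 kb). There were 68 such regions among 1440417 in the 8 lists. The 48 regions of WT and the 20 regions of ASH1L-/- libraries were joined where they overlapped, which gave 35 sites, numbered S1 to S35 along the chromosome and so from the 3′ end of the gene to its promoter. The reference transcript ENST00000392403.8 has 28 exons, and distances are given from its start site. A region counted as promoter if its strongest summit lay within 1 kb of any of the 13 annotated ASH1L start sites, and as internal otherwise. By this definition 2 sites were promoter and 33 internal, of which 32 had their strongest summit in an intron and 1 in an exon. As many as 28 sites had a region in 1 library only, 4 were found in 2 to 7 libraries and 3 in all 8. Across the genome 60.5% of the 548046 sites were seen in 1 library, and 60323 sites were shared by all 8.

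The sequences at 3 of the most widely shared sites are shown because the results turn on these few places, each printed 5′ to 3′ on the gene's own (minus) strand of hg38. Capitals mark matches to any of 11 short motifs, searched on both strands, which were TGANTCA for AP-1, TGACGTCA for CRE, GGAATG for TEAD, TGTGGT for RUNX, CCGGAAG for ETS, GGGCGG for SP/KLF, GCGCANGCG for NRF1, AAGATGG for YY1, CCAAT for NF-Y, CACGTG for the E-box and AGATAA for the GATA family, and none of the matches overlapped another. The promoter stretch chr1:155562842-155563053 comes from the RefSeq promoter of the GRCh38.p14 assembly and lies just upstream of the reference start site. The internal stretches are 201 bases around the median summit of S15 (chr1:155463942-155464142) and S17 (chr1:155467200-155467400).
ASH1L promoter: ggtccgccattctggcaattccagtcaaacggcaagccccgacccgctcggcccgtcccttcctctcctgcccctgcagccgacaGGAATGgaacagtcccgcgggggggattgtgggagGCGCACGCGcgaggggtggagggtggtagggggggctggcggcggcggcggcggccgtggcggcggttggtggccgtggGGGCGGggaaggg
S15, intron 3: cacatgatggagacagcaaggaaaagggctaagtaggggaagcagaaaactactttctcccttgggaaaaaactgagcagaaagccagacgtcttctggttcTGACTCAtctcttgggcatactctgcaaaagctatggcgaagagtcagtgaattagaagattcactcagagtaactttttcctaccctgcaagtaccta
S17, intron 3: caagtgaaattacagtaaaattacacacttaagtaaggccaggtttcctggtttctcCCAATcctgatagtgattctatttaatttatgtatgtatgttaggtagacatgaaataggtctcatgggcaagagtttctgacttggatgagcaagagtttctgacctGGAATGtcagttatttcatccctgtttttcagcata

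The 3 stretches differ in kind. The promoter stretch had 74.1% G or C and held 1 match each to the SP/KLF, NRF1 and TEAD motifs. Among the 250-base upstream parts of 35114 RefSeq promoters, 42.6% held the SP/KLF letters, 6.56% the NRF1 letters and 11.9% the TEAD letters. S15 had 44.8% G or C and 1 match to AP-1, the motif of the FOS and JUN family, that began at base 103 of the window, next to its centre. Windows of the same length held the AP-1 letters at 11.1% of all sites in the genome and at 23.1% of those shared by all 8 libraries. S17 held a TEAD and an NF-Y match, letters that were found at 13.2% and 24.4% of all sites. The stretches of 24 bases within the S15 and S17 windows, 178 in each, all occurred in 1 place only on chromosomes 1 to 22 and X, whereas 20 of the 227 in the 250 bases upstream of the start site occurred in more than 1.

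The map of regions by library shows a promoter shared by every library and a gene body that carried more regions in most WT libraries. The unchallenged WT libraries had 14 and 14 regions over ASH1L, and the WT libraries 3 h post UV had 11 and 9. In ASH1L-/- cells there were 4 and 3 regions without UV and 4 and 9 after UV. The ranges therefore touched at 9, which was the lowest WT value and the highest ASH1L-/- value, held by replicate 2 of the irradiated ASH1L-/- cells. The mean was 12 ± 2.45 (SD, n = 4) in WT and 5 ± 2.71 (SD, n = 4) in ASH1L-/- libraries, a difference of 7 regions (p = 0.0571, exact permutation test, two-sided, adjusted p = 0.0857 over 6 tests), which did not pass 0.05. Among 18489 protein-coding genes with a region, 1.37% had every WT count above every ASH1L-/- count, a condition that ASH1L missed by the tie at 9.

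**Figure D1:**
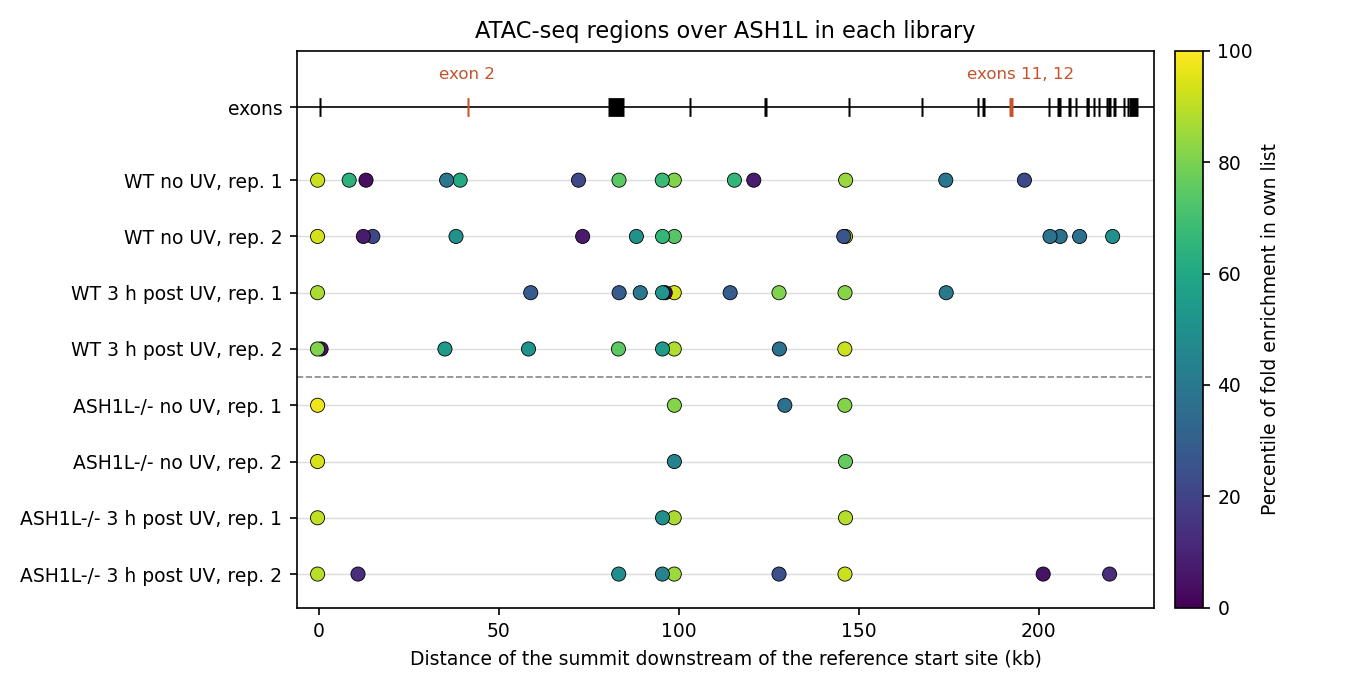
Each row is 1 of the 8 libraries and each point 1 region, placed by the distance of its strongest summit (kb) downstream of the reference start site and coloured by the percentile of its fold enrichment within its own list. The top row shows the 28 exons with the targeted exons 2, 11 and 12 in orange, and WT rows carry 9 to 14 points against 3 to 9 in ASH1L-/- rows.

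Of this difference, 6.75 regions lay inside the gene. WT libraries had 13, 13, 10 and 7 internal regions and ASH1L-/- libraries had 3, 2, 3 and 8, in the order no UV replicates 1 and 2, then 3 h post UV replicates 1 and 2. The means were 10.8 ± 2.87 and 4 ± 2.71 (SD, n = 4 each), and their difference gave p = 0.0571 (exact permutation test, two-sided, adjusted p = 0.0857 over 6 tests). The overlap came again from irradiated ASH1L-/- replicate 2, whose 8 internal regions exceeded the 7 of WT replicate 2 post UV. Unchallenged cells gave the widest gap, a mean of 13 against 2.5 internal regions, whereas the means post UV were 8.5 and 5.5. A comparison of 2 libraries with 2 cannot fall below p = 0.333 in this exact test, so these values carry no test. With internal sites seen in a single library left out, the difference between the genotypes was 2 regions (p = 0.114, exact permutation test, two-sided).

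**Figure D2:**
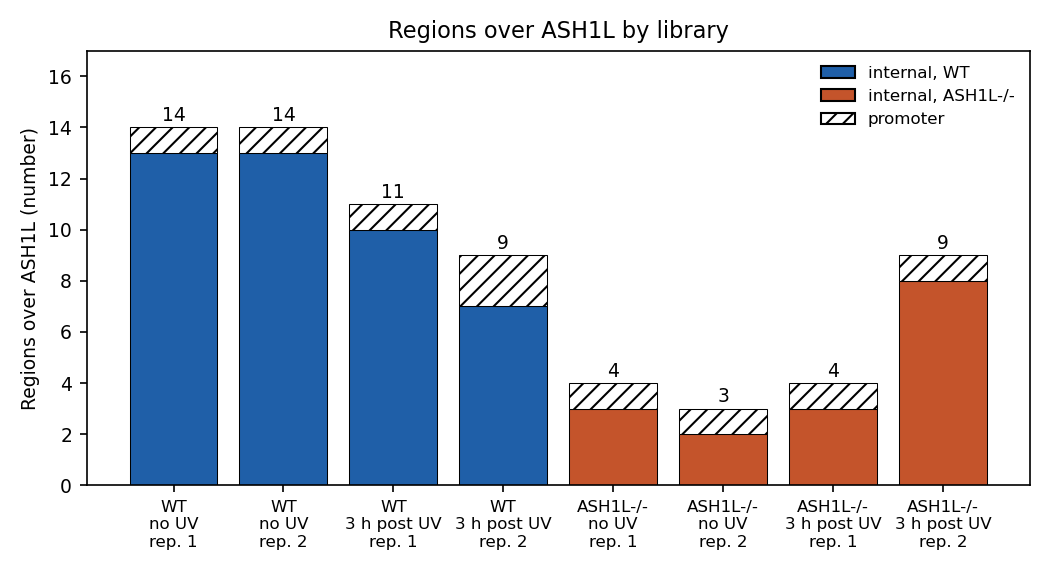
Bars give the number of regions over ASH1L in each of the 8 libraries, split into internal regions (filled) and promoter regions (hatched), with the total above each bar. Totals fall from 14, 14, 11 and 9 in WT to 4, 3, 4 and 9 in ASH1L-/- libraries, and the promoter part is 1 region in all but replicate 2 of irradiated WT cells, which had 2.

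The bases of the gene under any region separated the genotypes without overlap. WT libraries covered 3961, 4077, 4456 and 4667 bases of ASH1L, and ASH1L-/- libraries covered 1691, 1219, 2169 and 3503. The lowest WT library thus lay above the highest ASH1L-/- library. The share of other genes that separate in this way by bases covered was not determined. The means were 4290 ± 328 and 2146 ± 985 bases (SD, n = 4 each), a difference of 2145 bases (p = 0.0286 in a two-sided exact permutation test, which is the lowest value possible with 4 against 4 libraries, adjusted p = 0.0857 over 6 tests). Coverage was higher post UV than without UV in both genotypes. The means were 4562 against 4019 bases in WT and 2836 against 1455 bases in ASH1L-/- cells. Regions were also wider post UV over the whole genome. Their median width was 357 and 444 bp post UV against 242 and 291 bp without UV in WT libraries. In ASH1L-/- libraries it was 381 and 356 bp against 274 and 273 bp.

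Strong regions did not follow this pattern. Regions in the top quartile of fold enrichment of their own list numbered 3, 2, 4 and 3 in WT and 3, 2, 3 and 3 in ASH1L-/- libraries, and the difference of 0.25 gave p = 1 (exact permutation test, two-sided). Fold enrichment is the pileup at the summit over the local background, and its percentile places a region within its own list, because the values were not normalised between libraries. When regions with a q-value below 0.05 were counted, WT libraries had 10, 11, 10 and 9 and ASH1L-/- libraries 4, 3, 4 and 6, with no overlap (difference 5.75, p = 0.0286, exact permutation test, two-sided). Over the genome, 78.5% to 94.2% of the regions in WT lists and 77.4% to 88.5% in ASH1L-/- lists had such a q-value. The number of regions per 10000 of the list was also higher in every WT library, from 0.539 to 0.784 against 0.181 to 0.452. The share of genes that separate the genotypes on either of these measures was not determined.

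For UV irradiation the number of regions did not pass the test. Over both genotypes the mean was 8.25 ± 2.99 post UV and 8.75 ± 6.08 without UV (SD, n = 4 each), a difference of -0.5 (p = 1, exact permutation test, two-sided, adjusted p = 1 over 6 tests). In WT cells both irradiated libraries had fewer regions than both unchallenged ones. In ASH1L-/- cells the irradiated libraries had as many or more.

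ASH1L stood near the edge of the genome in this comparison but was not alone. A difference of at least 7 regions in the means of WT and ASH1L-/- libraries was found in 138 other protein-coding genes, 0.746% of those with a region. Long genes collect more regions, so the ratio of the means was also taken among the 3112 genes with as many regions on average as ASH1L or more. There the ratio of ASH1L, 2.4, ranked 5th together with FGF14, and 0.193% of these genes, ASH1L included, reached it. The median ratio was 0.936, and the percentiles 5 and 95 were 0.633 and 1.49. NLGN1 (3), CACNB2 (2.85), STAG1 (2.7) and KCNH5 (2.49) had higher ratios, and these genes were named after their values were seen.

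**Figure D3:**
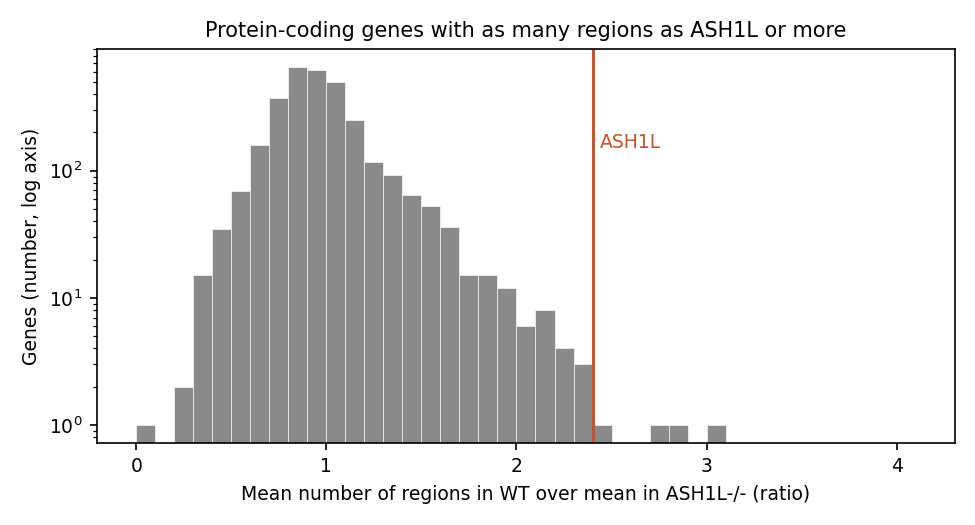
The histogram counts protein-coding genes with at least as many regions on average as ASH1L (log axis) by the ratio of their mean number of regions in WT to that in ASH1L-/- libraries, in steps of 0.1. ASH1L is marked by the line at 2.4, to the right of percentile 95 at 1.49, with 4 genes beyond it.

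The neighbourhood of ASH1L showed the same order of the genotypes. In a window of the gene's length beyond its 3′ end, WT libraries had 38, 39, 42 and 40 regions and ASH1L-/- libraries 34, 31, 33 and 34. In such a window beyond the 5′ end, WT libraries had 19, 24, 16 and 17 and ASH1L-/- libraries 9, 11, 13 and 15. All 4 WT counts therefore exceeded all 4 ASH1L-/- counts on either side of the gene. Of 12472 windows of this length with a region, tiled along the genome, 3.65% did so. The part of this wider difference in the values over ASH1L was not tested, and the copy number of the segment in either line was not analysed here.

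Of the 35 sites, 6 were found in both genotypes, and no site separated the genotypes fully. Across the genome, 31.3% of sites were found in WT libraries only and 36.1% in ASH1L-/- libraries only. Regions in all 4 WT libraries and none of the ASH1L-/- libraries made up 0.0768% of all 548046 sites in the genome, and the reverse pattern 0.186%, and none of these lay over ASH1L. One site, S20, had a region in at least 3 WT and at most 1 ASH1L-/- library, as did 1.32% of sites in the genome. The description below follows the gene from its promoter to its 3′ end.

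The promoter region S35 (chr1:155562516-155563576) was present in every library. Its strongest summit lay 256 to 291 bp upstream of the reference start site in all 8, and each library had another summit 516 to 591 bp upstream. The sequence printed for the promoter lies between the reference start site and the strongest summit. S35 also covered the start site of MSTO1, a neighbour on the opposite strand at 155563235, and lay within the antisense gene ASH1L-AS1 (chr1:155562026-155563944), so that its accessibility cannot be assigned to ASH1L alone. In irradiated WT replicate 2 a further weak promoter region, S34 (chr1:155562017-155562321), reached percentile 5.03.

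The promoter ranked high in all lists, and lower in every irradiated than in every unchallenged library. Its percentile was 91.9 and 93.7 in unchallenged WT cells and 97.6 and 93.9 in unchallenged ASH1L-/- cells. Post UV it was 87.5 and 81.1 in WT and 90.9 and 89.1 in ASH1L-/- cells. The means were 94.3 ± 2.39 without UV and 87.1 ± 4.27 post UV (SD, n = 4 each), a difference of -7.15 points (p = 0.0286, exact permutation test, two-sided, adjusted p = 0.0857 over 6 tests). Among the 60323 sites with a region in all 8 libraries, the adjusted p was 0.156, and 12.3% of these sites lay lower in every irradiated library.

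That order was weaker on a scale tied to pileup. The pileup at each summit was divided by the mean pileup of the library over the genome, and the result by the median of the same value at the 60323 shared sites. On this scale the promoter stood at 1.79 and 2 times the median shared site in unchallenged WT and 1.6 and 1.5 times in unchallenged ASH1L-/- cells, against 1.63, 1.26, 1.42 and 1.15 times post UV. The ranges overlapped, and the log2 difference was -0.34 (p = 0.0857, exact permutation test, two-sided). In bulk cultures, a site open in fewer cells and a site less open in each cell cannot be told apart.

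With the UV conditions pooled, the promoter overlapped between the genotypes. Within each UV condition, both WT libraries lay below both ASH1L-/- libraries in percentile. An exact permutation test within the UV conditions, two-sided, gave p = 0.0556, the smallest that its 36 assignments allow. The mean percentile was 88.5 ± 5.61 in WT and 92.9 ± 3.74 in ASH1L-/- libraries (SD, n = 4 each), a difference of -4.35 points (p = 0.257, exact permutation test, two-sided, adjusted p = 0.309 over 6 tests). The relative level was higher in WT by 0.23 on the log2 scale (p = 0.257, exact permutation test, two-sided), so that the sign depended on the measure.

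The targeted exons lay outside all regions. Exon 2 (chr1:155521100-155521618) had its nearest region at 1.78 kb in an unchallenged WT library and at 30.2 kb or more in the ASH1L-/- libraries. Exon 11 (chr1:155370777-155370983) and exon 12 (chr1:155370504-155370650) had none closer than 3.56 kb in WT and 8.76 kb in ASH1L-/- libraries. The peak lists therefore hold no direct measure of the deletions, and the genotype rests on the labels.

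S20 (chr1:155479210-155479670), 83.4 kb downstream, was the only internal site with its strongest summit in an exon of the reference transcript, the long coding exon 3. It reached percentile 74.8 in unchallenged WT replicate 1, 29.1 and 74.8 in the WT replicates 1 and 2 post UV, and 49.4 in irradiated ASH1L-/- replicate 2. No region was called there in the other 4 libraries, which include both unchallenged ASH1L-/- libraries. A region in at least 3 irradiated and at most 1 unchallenged library, as at S20 and S11, was found at 3.71% of all sites.

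S17 (chr1:155466870-155467557), 95.5 kb downstream in intron 3, was called in all 4 WT libraries, as S9 and S15 were, but not in all ASH1L-/- libraries, and it is named because of its values. Its percentiles were 67.7 and 66.3 in unchallenged and 52.1 and 54.4 in irradiated WT libraries. In ASH1L-/- cells it was called post UV, at percentiles 49.8 and 44, and in neither unchallenged library. The pileup at S17 was 6.19 and 6.32 times the genome mean in unchallenged WT cells. In the unchallenged ASH1L-/- libraries the smallest pileup that gave a region over a background at the mean was 2.04 and 3.60 times the mean. These multiples differ in scale, as the median shared site stood at 13.8 and 19.0 times the mean in the former and 9.37 and 15.8 times in the latter. The part of the detection limit in the missing S17 regions was not tested.

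S15 (chr1:155463773-155464338), 98.8 kb downstream in intron 3, was called in all 8 libraries and ranked higher in every irradiated one. Its percentile was 81.5 and 73.8 in unchallenged WT and 81.5 and 43.8 in unchallenged ASH1L-/- libraries, and 93.1, 88.2, 87.4 and 85.1 post UV in the same order of genotypes. The lowest irradiated library thus lay above the highest unchallenged one. The means were 88.5 ± 3.40 and 70.1 ± 17.9 (SD, n = 4 each), a difference of 18.3 points (p = 0.0286, exact permutation test, two-sided, adjusted p = 0.156 over 60323 shared sites), and 5.98% of shared sites had this order. Without unchallenged ASH1L-/- replicate 2, the lowest library, the mean of the UV differences within each genotype was 8.88 points. Without unchallenged ASH1L-/- replicate 1 this mean was 27.7 points.

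Pileups gave the same order at S15. The pileup at the summit was 18 and 14 in unchallenged WT libraries and 78 and 136 in irradiated ones. It was 30 and 7 against 44 and 40 in ASH1L-/- libraries, of which unchallenged replicate 1 was the deepest of the series. Relative to the median shared site, the level was 0.621 and 0.424 in unchallenged WT and 1.81 and 1.68 in irradiated WT cells. It was 0.545 and 0.318 in unchallenged and 0.917 and 0.727 in irradiated ASH1L-/- cells. The log2 difference between UV conditions was 1.37 (p = 0.0286, exact permutation test, two-sided, adjusted p = 0.145 over 60323 shared sites), and 9.02% of shared sites lay higher in every irradiated library on this scale. No shared site in the genome passed an adjusted p of 0.05 for UV, whereas 11852 had an unadjusted exact permutation p below 0.05 on this scale and 11034 by percentile.

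S11 (chr1:155434618-155435266), 128 kb downstream in intron 5, was called in irradiated libraries only and is named because of its values. It reached percentiles 80.6 and 37.1 in the WT replicates post UV and 24.6 in irradiated ASH1L-/- replicate 2, and no region was found there without UV. POU5F1P4, a processed pseudogene on the opposite strand (chr1:155433178-155434262), lies next to it.

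S9 (chr1:155416245-155417116), 146 kb downstream in intron 5, was called in all 8 libraries. Its percentile was 84.7 and 93.2 in unchallenged and 81.9 and 92.1 in irradiated WT libraries, and 81.5 and 76.5 in unchallenged and 88.9 and 91.9 in irradiated ASH1L-/- libraries. The genotypes overlapped (difference 3.26 points, p = 0.429, exact permutation test, two-sided), as did the UV conditions (difference 4.73 points, p = 0.343, exact permutation test, two-sided). Relative to the median shared site the level was 0.931, 1.27, 0.814 and 1.14 in WT and 0.545, 0.591, 0.854 and 0.836 in ASH1L-/- libraries, and 3 of 4 WT libraries lay above all ASH1L-/- libraries. The log2 difference of 0.56 gave p = 0.0857 (exact permutation test, two-sided, adjusted p = 0.426 over 60323 shared sites).

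**Figure D4:**
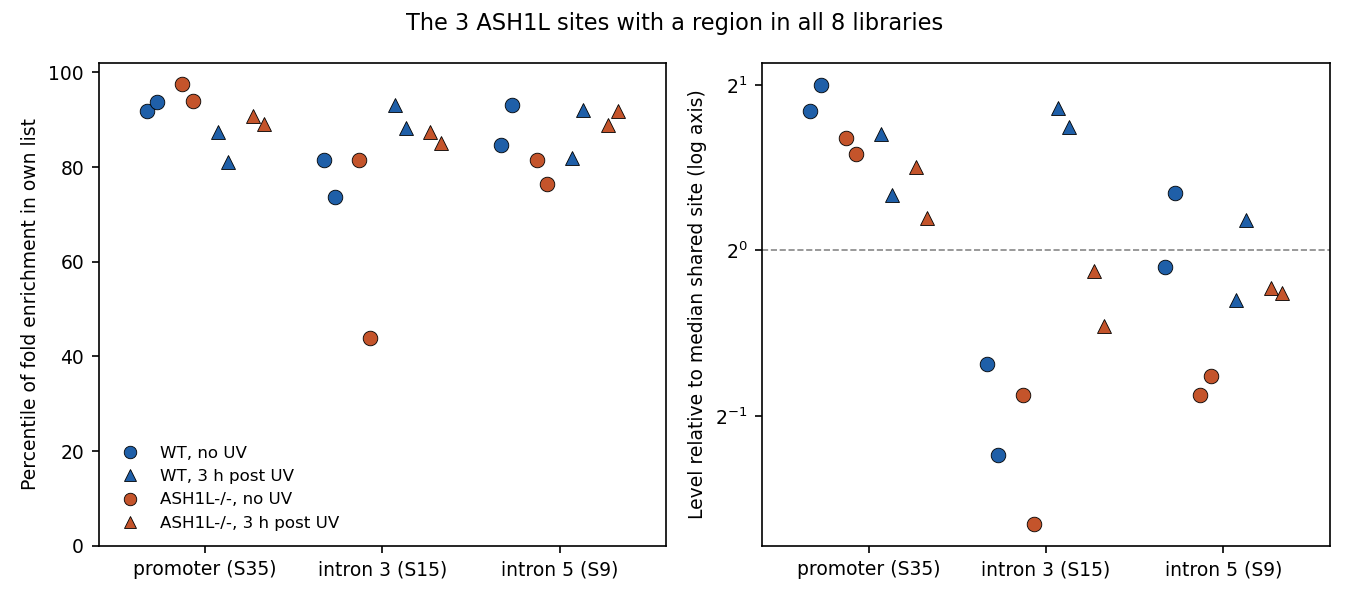
Points give the value of each library at the 3 shared sites, as percentile of fold enrichment in the own list (left) and as level relative to the median shared site on a log axis (right). WT is blue, ASH1L-/- orange, circles no UV and triangles 3 h post UV, and at S15 all triangles lie above all circles in both panels.

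The sites missing in ASH1L-/- cells were many, weak and mostly seen once. A region in WT and in none of the 4 ASH1L-/- libraries was found at 25 of the 35 sites, of which 24 were internal and 24 were called in 1 library. Of all sites in the genome, 31.3% had this pattern. S8 (chr1:155388469-155388842, intron 7) was called in 2, at percentiles 39.3 and 39.7. Of the 25 sites, 17 were called without UV only, 7 post UV only and 1 in both. Of the 24 internal ones, 8 lay in intron 1, 4 in intron 2, 3 each in introns 3 and 4, and the remaining 6 in introns 7 to 24.

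By strength in their own lists these sites stood in the lower and middle ranks. Their percentiles ran from 0.938 to 66.0 with a median of 37.5, and none was in the top quartile. The strongest were S13 in intron 4 (percentile 66.0), S33 in intron 1 (64.1) and S25 in intron 1 (60.8), all in unchallenged WT cells. S28 in intron 1 (53.7) and S24 in intron 2 (51.6), both called in irradiated WT cells, and S1 in intron 24, S19 in intron 3 and S26 in intron 1 (50.1 each) followed, which made 8 sites above the median of their list. The pileup behind the 25 sites was 5 to 21, or 2.86 to 7.85 times the genome mean. Of the 25 sites, 17 had a q-value below 0.05, as did 78.5% to 94.2% of all regions in the WT lists.

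A smaller set showed the reverse pattern. There were 4 sites with a region in ASH1L-/- but no WT library, a pattern found at 36.1% of all sites in the genome. They were S2 in intron 24, S6 in intron 12, S10 in intron 5 and S32 in intron 1, each in 1 library. Their percentiles ran from 4.80 to 37.4, and 1 of the 4 had a q-value below 0.05. In the ASH1L-/- lists 77.4% to 88.5% of all regions had such a q-value. Irradiated ASH1L-/- replicate 2 held 3 of the 4 sites, S2, S6 and S32.

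The lists differed in depth and in the smallest pileup that gave a region. The lists held between 158198 and 220783 regions, and the mean pileup over the genome, recovered from the deposited values, ranged from 1.74 to 2.67 in WT and from 1.39 to 5.87 in ASH1L-/- libraries. The deepest library, unchallenged ASH1L-/- replicate 1, could call a region from 2.04 times the mean and had 4 regions over ASH1L. The shallowest, unchallenged ASH1L-/- replicate 2, needed 3.60 times the mean. The median shared site stood at 9.37 and 15.8 times the mean in these libraries and at 13.8 to 30.3 times in WT libraries. With levels scaled to the shared sites, 15 and 14 of the 25 WT-only sites would lie above their limits. In both irradiated ASH1L-/- libraries all 25 would. Each scaled level came from the library in which the site ranked highest, and 24 of the 25 sites were called in 1 library. In irradiated WT replicate 2 the scaled levels of all 25 were 1.75 to 4.39 times its limit. Of these sites only S24, S28 and S34 had a region there. The part of depth in the missing sites was not tested.

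Genes that work with or beside ASH1L were examined in the same way. The list comprised its partners MORF4L1, MORF4L2 and RBBP4, the FACT subunits SUPT16H and SSRP1, which move histones aside during transcription and repair, the H3K36 methyltransferases NSD1, NSD2, NSD3 and SETD2, and the H3K4 methyltransferases KMT2A, KMT2B, KMT2C, KMT2D, SETD1A and SETD1B. In none of these 15 genes did every WT count exceed every ASH1L-/- count, as in 1.37% of all genes with a region, nor the reverse, and the unadjusted p ran from 0.286 to 1 (exact permutation test, two-sided). With so small a share, finding none among 15 genes does not set them apart. The share of genes with the reverse order was not determined. MORF4L1 had 8, 10, 9 and 6 regions in WT and 16, 9, 8 and 8 in ASH1L-/- libraries. KMT2A, another H3K4 methyltransferase of the trithorax group, had the smallest p, with 2, 4, 6 and 3 regions in WT and 0, 1, 3 and 4 in ASH1L-/- libraries.

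The genes whose number of regions followed that of ASH1L most closely over the 8 libraries were PLCH1 (r = 0.987), BBS2 (0.971), ZNF423 (0.969), ZFHX3 (0.968) and SDCCAG8 (0.967), out of 4808 genes of at least 50 kb with at least 5 regions on average. PLCH1 had 22, 22, 20 and 18 regions in WT and 15, 15, 14 and 18 in ASH1L-/- libraries. ZFHX3, the longest of them at 1109 kb, had 84, 87, 68 and 68 in WT and 37, 37, 48 and 55 in ASH1L-/- libraries. These correlations share the depth and list length of the 8 libraries and are given as a description.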

How the data were processed

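ATAC-seq was performed on 4 groups of U2OS cells with 2 libraries each, and groups and replicate numbers came from the sample titles. Per the labels and the study's methods, the authors trimmed reads with cutadapt (version 1.9.1), aligned them with Bowtie2 (2.4.5) to hg38 without chromosome Y, filtered them with SAMtools (1.7), bedtools (2.29.2) and Picard for duplicates, mapping quality, blacklisted regions, other contigs and mitochondrial DNA, and called narrow peaks in each library separately with MACS2 (2.2.7.1). How the Tn5 offset was handled is not given in the sources used here. The deposited lists give for each summit a fold enrichment, a ratio of pileup to local background within that library. Beside it the deposited lists hold a −log10 p-value, a −log10 q-value and a score, of which the score was not used. The authors normalised none of these between libraries. The methods name default settings, yet all lists reached down to a p-value of 0.01.

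A region was a distinct interval, with its record of highest fold enrichment. Genes came from GENCODE release 44. The lists hold no read counts. Pileup and background were solved from the fold enrichment, taken as (pileup + 1) / (background + 1), and the Poisson p-value. This and the permutation tests were tested on simulated data. The lowest background of a list is the mean pileup over the genome and served as depth, so that precision is limited by low pileups at weak sites. Group means were compared by exact permutation tests, two-sided, over the 70 assignments of 8 libraries to 4 and 4 (smallest p 0.0286). Benjamini-Hochberg adjustment covered 6 tests, or all 60323 shared sites. The p-values measure the spread between these libraries.

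No 2 lists shared an identical record. ASH1L, its gene lists and its tests were chosen with earlier results of these data known. Sites in all 8 libraries were to be described in full. So were sites in all 4 libraries of 1 genotype or UV condition and in none of the other 4. The same held for sites in at least 3 of 4 libraries of 1 genotype and at most 1 of the other. All other sites were to be given by range and counts. Alternatives covered q-value filters, equal list lengths, placement of regions and promoters, the replicate block and leaving out each library. Relative levels, flanking windows, detection limits, regions per 10000, the tests at S15 and S9 and the promoter's adjusted p over all shared sites were added after seeing the data. The guide sequences, 1 lineage marker and the sequence at 1 site are not reported here. Python (3.11.15), numpy (2.4.6), pandas (2.3.3) and scipy (1.17.1) were used.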

Additional observations from a re-analysis of the deposited data

Results flagged for a closer look

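Among the ASH1L-/- libraries, replicate 2 of the cells 3 h post UV stood apart in its number of regions over ASH1L, 9 against 3 to 4 in the others, a gap of 0.833 of the whole range. Its number of internal regions, 8 against 2 to 3, gave the same gap of 0.833. At S15 unchallenged ASH1L-/- replicate 2 lay apart from the other ASH1L-/- libraries, at percentile 43.8 against 81.5 to 87.4, with a gap of 0.864 of the range. These gaps exceed Dixon's 95% limit for 4 libraries, which chance passes in about 1 of 20 groups. Several measures were screened in each genotype and each UV condition, so that a gap of this size can arise by chance. Internal regions are part of all regions, so the gaps in these counts are not independent.

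The number of regions over ASH1L per 10000 regions of the list moved in opposite directions with UV in the 2 genotypes. In WT cells it fell by 0.151, with both irradiated libraries below both unchallenged ones, and in ASH1L-/- cells it was higher by 0.161, with both irradiated libraries above. This difference between the genotypes was not tested.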

How the results depend on the processing

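The WT excess in regions (7) and internal regions (6.75) kept its direction in all alternatives. It passed p = 0.05 (p = 0.0286 each, exact permutation test) at q-values under 0.05 (5.75 and 5.5), at q-values up to 0.01 (4.25 and 4), for lists of equal length (6.25 and 6.25), when every summit counted (7.25 and 7.75) and, for all regions, per 10000 regions of the list (0.419). With internal sites of a single library left out, the difference was 2 (exact permutation p = 0.114). Leaving out 1 library gave 5.75 to 8.25 and 5.5 to 8. All values without 1 library are means of the differences within the levels of the other factor. The WT excess in bases covered was 1617 to 2334 over the filters and placements and 1811 to 2478 without 1 library.

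The UV difference in regions changed sign to 0.25 (q-value below 0.05), 1.25 (up to 0.01), 3.25 (every summit), 0.750 (top quartile), 0.00520 (per 10000 regions) and 0.750 (without irradiated ASH1L-/- replicate 1), and ranged from -1.75 to 0.750 without 1 library. The UV difference in the promoter percentile lost its call at q-values up to 0.01 (-7.16) and as relative level (-0.34), and was -8.75 to -5.56 without 1 library. The genotype difference of the promoter turned from -4.35 to 0.23 as relative level. The share of genes with as large a difference as ASH1L moved from 0.746% to 0.974% (q-values up to 0.01), 0.932% (equal list lengths) and 0.450% (all annotated genes). No site separated the genotypes in any alternative. The cause of these changes was not tested.

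Same-numbered libraries shared only a number (r of their deviations from the group means at shared sites -0.223 to 0.190). With the replicate block, the values stayed at 2145 bases and -7.15 points, both with an exact permutation p of 0.0556, the smallest that the 36 assignments allow, so that these calls were lost by construction, as they were within the levels of the other factor (2145 and -7.15) and with 1 library left out. The call at S15 was lost in the same way (18.3 points, exact permutation p = 0.0556). The block changed no other call. S15 had no value at q-values up to 0.01, since unchallenged ASH1L-/- replicate 2 lost its region there.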
